A study of Mus musculus with 6 samples.

Results

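The 10 genes described here encode proteins of the sperm acrosome and of sperm-egg fusion: Dpy19l2, Spaca1, Zpbp, Zpbp2, Acr, Acrbp, Acrv1, Spaca7, Spam1 and Izumo1. They were chosen by symbol, for the known place of their proteins, with earlier results of these data known, and each symbol matched 1 of the 57010 gene IDs in the table. The acrosome is a secretory vesicle that spermatids build from Golgi membranes and spread over the nucleus. When a sperm reaches the egg coat, the vesicle opens and releases its enzymes, and the inner acrosomal membrane and the surface next to it carry the proteins that meet the egg. These messages are made mainly in round and elongating spermatids, so they are found in testis.

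The libraries hold RNA that came down with an antibody to PNMA4, a capsid-like protein of retrotransposon origin whose gene is listed as Moap1. For each library, 8 frozen testes from mice aged 3 months were lysed, and the lysate was spun onto a cushion of 25% over 70% sucrose. The layer above the denser sucrose was separated on iodixanol, and PNMA4 was precipitated from fractions 8 and 9. There were 3 libraries of wild-type C57BL/6J mice and 3 of mice without PNMA4, set up to ask which RNA comes down with PNMA4. Of the latter, 2 came from Pnma4 knockouts (Pnma4 KO) and 1 from a double knockout (Pnma1, Pnma4 DKO), which the submitters placed in the group as replicate 3. The antibody was used in both groups, so the libraries without PNMA4 measure what the beads and the antibody bring down without their target. Total RNA of the lysates was not analysed here, so the values are levels in the precipitate and not enrichments over testis. In such bulk samples, fewer cells of a type and less RNA per cell cannot be told apart. The labels give the strain for wild type only.

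Total counts ran from 3138657 to 6367930 per library. Moap1 had 0 counts in all 3 libraries lacking PNMA4, and Pnma1 had 0 in the double knockout, as their labels require. The double knockout library stood apart from the others: Rn18s-rs5 and Lars2, which collect ribosomal RNA-like reads, held 66.3% of its counts and 28.1% to 46.9% of the other 5 libraries. All 10 spermatid markers and all 7 spermatocyte markers of the fixed lists were tested. Summed spermatid markers stood at 1301 CPM in the double knockout and at 1026 to 1299 CPM elsewhere. Summed spermatocyte markers stood at 1730 CPM and 1791 to 2088 CPM elsewhere. Single markers varied more, such as Prm1 from 30.4 to 95.3 CPM and Sycp1 from 89.5 to 267 CPM. Summed Leydig cell markers stood at 336 CPM in the double knockout and at 122 to 168 CPM elsewhere. Summed Sertoli cell markers stood at 315 CPM and 149.9 to 227 CPM elsewhere. All 8 Sertoli cell markers, with Amh on 6 counts in all, were highest in the double knockout. So were all 6 Leydig cell markers except Star, and the margins differed. The Leydig cell marker Cyp17a1 was at 128 CPM in the double knockout and 32.1 to 55.2 CPM elsewhere, but Star at 46.5 and 38.3 to 46.8 CPM. In the same order, the Sertoli cell marker Clu was at 190 and 62.8 to 132 CPM, but Sox9 at 23.7 and 19.6 to 22.0 CPM. Summed epididymis markers were at 0.461 to 1.02 CPM in wild type and 4.86 to 11.04 CPM in the other group. Of these 8 markers, Crisp1 (73 counts in all) and Adam7 (27 counts) carried the sum. Lcn8, Cst11 and Defb15 had 1, 1 and 3 counts, and Lcn5, Lcn9 and Spink12 were at 0 in every library. Crisp1 was lower in wild type, with a log2 fold change of −3.57 (standard error 0.56, edgeR adjusted p = 0.00244). The part that these cell types or the ribosomal share have in the values below was not tested.

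Messages of the acrosome and of egg fusion were recovered in all 6 immunoprecipitates, with or without PNMA4. The recovered counts came to 13827 over the 10 genes, and the lowest single value was 28 counts. Their share of a library's counts ran from 0.0322% in the double knockout (95% Clopper-Pearson interval 0.0307% to 0.0339%) to 0.0537% in wild-type replicate 2 (0.0519% to 0.0556%). Such intervals cover counting error only. On the CPM scale, in which counts are divided by a library size adjusted by TMM (trimmed mean of M values), the 10 genes together reached 399, 420.3 and 454 CPM in wild-type replicates 1 to 3. They summed to 440.5 and 448 CPM in Pnma4 knockout replicates 1 and 2 and to 516 CPM in the double knockout. The TMM factor was 0.628 in the double knockout and 1.01 to 1.29 in the other libraries. The double knockout was lowest by share of counts but highest in CPM, and its place in the CPM values below depends on that factor. The group means were 424 ± 27.9 and 468 ± 41.3 CPM (SD, n = 3 each), and the 2 groups overlapped.

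Upstream sequence is shown for 4 of the genes, those with a cyclic AMP response element half-site in this window. CREM, a spermatid transcription factor, binds such elements. The 4 also form 2 of the 3 pairs whose counts kept the steadiest ratio across libraries (values below). The steadiest pair of all, Dpy19l2 and Zpbp, had 0 half-sites in either gene. A link between half-sites and steady ratios was not tested. The 250 bases before the start site are given for each, from RefSeq on GRCm38.p6, 5′ to 3′, with half-sites (TGACG, or CGTCA on the other strand) in capitals.
Izumo1, chr7:45621561-45621810, plus strand: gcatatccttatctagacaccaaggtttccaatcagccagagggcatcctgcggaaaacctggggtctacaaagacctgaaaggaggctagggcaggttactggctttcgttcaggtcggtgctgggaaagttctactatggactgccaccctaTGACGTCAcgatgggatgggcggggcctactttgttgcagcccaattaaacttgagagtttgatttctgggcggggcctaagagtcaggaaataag
Acrbp, chr6:125049677-125049926, plus strand: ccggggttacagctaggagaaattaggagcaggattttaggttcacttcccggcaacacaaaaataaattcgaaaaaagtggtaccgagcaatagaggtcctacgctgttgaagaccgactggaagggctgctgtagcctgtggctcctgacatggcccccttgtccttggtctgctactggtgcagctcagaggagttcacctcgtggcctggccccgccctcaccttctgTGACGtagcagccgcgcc
Spaca1, chr4:34050068-34050317, minus strand: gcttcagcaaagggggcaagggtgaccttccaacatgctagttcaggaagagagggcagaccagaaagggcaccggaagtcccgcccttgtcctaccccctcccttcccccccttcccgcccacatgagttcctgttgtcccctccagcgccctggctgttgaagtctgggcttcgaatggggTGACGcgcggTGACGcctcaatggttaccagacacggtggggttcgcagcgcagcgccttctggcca
Zpbp2, chr11:98550847-98551096, plus strand: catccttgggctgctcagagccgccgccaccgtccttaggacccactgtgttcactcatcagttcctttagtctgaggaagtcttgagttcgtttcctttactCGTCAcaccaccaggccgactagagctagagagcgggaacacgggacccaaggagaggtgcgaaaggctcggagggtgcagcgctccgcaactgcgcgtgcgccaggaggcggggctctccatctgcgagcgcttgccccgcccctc
Of the 10 genes, 9 had an entry in the promoter table, and a half-site was found in 4 of these 9, against 17.8% of 32851 promoters of the same length. The 9 are counted by gene, with a match in any entry, and the shares of all promoters by entry. A gene such as Spaca1 can have more than 1 entry. The full palindrome TGACGTCA, in which a half-site on each strand overlaps, was found in Izumo1 alone of the 9 and in 1.55% of all promoters. The letters TATAAA were found on the coding strand in 0 of 9 genes and in 7.59% of promoters. CCAAT or its complement ATTGG was found in Izumo1 and Zpbp, and in 33.8% of promoters. A match is a run of letters and not evidence of binding.

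**Figure D1:**
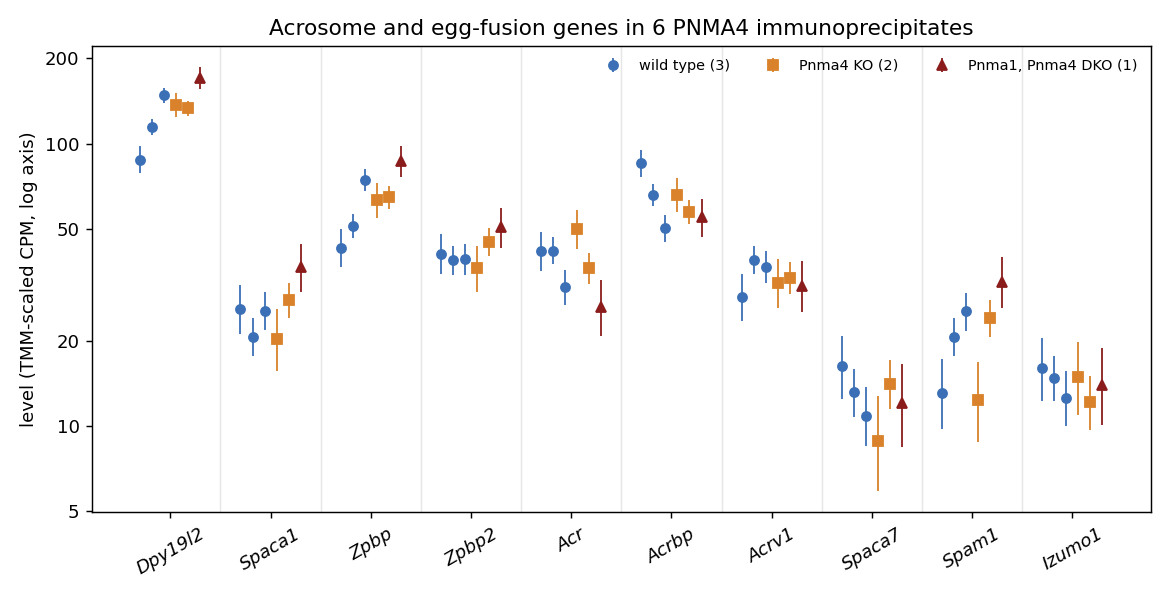
Level of each gene in each library, in TMM-scaled CPM on a log axis, with blue circles for wild type, orange squares for Pnma4 knockout and a dark red triangle for the double knockout. Bars are exact Poisson 95% intervals and cover counting error only. The groups with and without PNMA4 overlap for all 10 genes. On this scale the double knockout is the highest library for Dpy19l2, Spaca1, Zpbp, Zpbp2 and Spam1. Its place depends on its TMM factor, 0.628 against 1.01 to 1.29 in the other libraries.

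The genes that attach and shape the acrosome were recovered in every library. Their means were higher without PNMA4, did not pass the test, and for Spaca1 and Zpbp2 lay close to wild type once the double knockout was left out. Dpy19l2 (ENSMUSG00000085576, chromosome 9, 24557047 to 24696457) encodes a protein of the inner nuclear membrane that ties the acrosome to the spermatid nucleus. Its level was 87.8, 114 and 148 CPM in wild-type replicates 1 to 3, 137 and 133 CPM in the Pnma4 knockouts and 171 CPM in the double knockout. Wild-type replicate 1 was the lowest library, and wild-type replicate 3 lay between the Pnma4 knockouts and the double knockout. The means were 117 ± 30.2 CPM and 147 ± 20.7 CPM (SD, n = 3 each), with a log2 fold change of wild type over lacking PNMA4 of −0.33 and a standard error of 0.22. The 95% interval of that ratio ran from 0.584 to 1.09. Spaca1 (ENSMUSG00000028264, chromosome 4, 34024872 to 34050067) encodes an acrosomal membrane protein needed for a normal acrosome. Its values were 26.0, 20.7 and 25.7 CPM in wild type, 20.3 and 28.0 CPM in the Pnma4 knockouts and 36.4 CPM in the double knockout. The first Pnma4 knockout was lowest and the double knockout highest, so both ends of the range lay in the group without PNMA4.

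Zpbp and Zpbp2 encode a related pair of acrosomal proteins that bind the egg coat and take part in forming the acrosome. Zpbp (ENSMUSG00000020193, chromosome 11, 11279624 to 11464223) stood at 42.8, 51.3 and 74.5 CPM in wild type, at 63.1 and 64.6 CPM in the Pnma4 knockouts and at 86.6 CPM in the double knockout. Its libraries had the same order at both ends as those of Dpy19l2, and its log2 fold change was the most negative of the 10, at −0.34 (standard error 0.23). Zpbp2 (ENSMUSG00000017195, chromosome 11, 98551097 to 98558665) was steadier, at 40.7, 38.6 and 39.0 CPM in wild type, 36.2 and 45.0 CPM in the Pnma4 knockouts and 50.5 CPM in the double knockout. The 3 wild-type values of Zpbp2 lay inside the range of the group lacking PNMA4. Its log2 fold change was −0.16 (standard error 0.21), and that of Spaca1 −0.23 (standard error 0.24). Without the double knockout library these were −0.049 and −0.024, and those of Dpy19l2 and Zpbp −0.21 and −0.18. Without scaling factors all 4 were positive. Dpy19l2 contains the gene Cypt4 within its span, with 205 counts in all against 4068, and the end of Zpbp overlaps Spata48, with 264 counts against 1959. The strand setting of the counting is not given in the sources used here, so reads of the shared parts cannot be assigned with certainty.

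The 4 genes of the acrosomal matrix had overlapping groups, with means slightly higher in wild type. For Acr this turned without the double knockout library, to a log2 fold change of −0.16. Acr (ENSMUSG00000022622, chromosome 15, 89568326 to 89578853) encodes acrosin, the main serine protease of the acrosome. It was at 41.8, 41.8 and 31.0 CPM in wild type, 49.8 and 36.3 CPM in the Pnma4 knockouts and 26.4 CPM in the double knockout. The highest and the lowest library again both lacked PNMA4, and the group means were 38.2 ± 6.22 and 37.5 ± 11.7 CPM (SD, n = 3 each). Acrbp (ENSMUSG00000072770, chromosome 6, 125049927 to 125063265) encodes the protein that holds the acrosin precursor in the matrix. Its levels were 85.4, 65.9 and 50.2 CPM in wild type, 65.7 and 57.3 CPM in the Pnma4 knockouts and 54.8 CPM in the double knockout. Wild type held both ends of that range, and the log2 fold change of 0.18 (standard error 0.22) was the largest positive value of the 10. It was −0.03 without wild-type replicate 1.

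Acrv1 (ENSMUSG00000032110, chromosome 9, 36693220 to 36698845), which encodes the matrix protein SP-10, varied little. It was at 28.7, 38.8 and 36.6 CPM in wild type, 32.1 and 33.6 CPM in the Pnma4 knockouts and 31.4 CPM in the double knockout. The libraries lacking PNMA4 lay within the wild-type range. Spaca7 (ENSMUSG00000010435, chromosome 8, 12573036 to 12600739) encodes a protein released when the acrosome opens. It had the fewest counts of the 10 in a single library, 28 in the first Pnma4 knockout. In CPM it stood at 16.3, 13.2 and 10.9 in wild type, 8.89 and 14.1 in the Pnma4 knockouts and 12.04 in the double knockout, and the groups overlapped. The log2 fold changes were 0.10 (standard error 0.21) for Acrv1 and 0.16 (standard error 0.26) for Spaca7.

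The surface enzyme Spam1 was the most variable gene, and the fusion protein Izumo1 the least. Spam1 (ENSMUSG00000029682, chromosome 6, 24791188 to 24801048) encodes the sperm hyaluronidase PH-20, which acts on the cumulus matrix around the egg. Its level was 13.1, 20.7 and 25.5 CPM in wild type, 12.4 and 24.1 CPM in the Pnma4 knockouts and 32.4 CPM in the double knockout. The lowest library had an exact Poisson interval of 8.80 to 16.9 CPM and the highest one of 26.3 to 39.6 CPM, both in libraries without PNMA4. Across the 6 libraries its coefficient of variation was 36.0%, where counting error alone gives 11.1%. Izumo1 (ENSMUSG00000064158, chromosome 7, 45621811 to 45627242) encodes the sperm protein that docks on the egg receptor Juno. It stood at 16.03, 14.8 and 12.6 CPM in wild type, 14.9 and 12.1 CPM in the Pnma4 knockouts and 14.0 CPM in the double knockout. Its coefficient of variation of 10.5% was no larger than the 12.5% of counting error, and that of Acrv1, the next lowest, was 10.9%. The log2 fold changes were −0.20 (standard error 0.29) for Spam1 and 0.09 (standard error 0.24) for Izumo1.

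None of the 10 genes was called between wild type and the group lacking PNMA4. All 10 passed the filter on low counts and were tested among 13413 genes with edgeR's quasi-likelihood test, and each had an adjusted p of 1.00. Over all genes tested, 8 were called, or 0.0596%, so a count of 0 among 10 is near the background. At an unadjusted p under 0.05 there were also 0 of the 10, beside 2.92% of all genes. In 0 of the 10 did the 2 groups separate without overlap, beside 6.69% of all genes. With TMM scaling, 5 of the 10 log2 fold changes were positive and 5 negative with a median of −0.07, beside 52.0% positive and a median of 0.01 over all genes, while without scaling factors all 10 were positive with a median of 0.23 beside 0.31 over all genes. Without the double knockout library the median of the 10 was 0.03.

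The intervals set a bound on what was missed. For each of the 10 genes the 95% interval of the ratio of wild type to lacking PNMA4 lay between 0.574, the lower end for Zpbp, and 1.63, the upper end for Spaca7. Ratios of 2-fold, up or down, thus fell outside the interval for 10 of 10, after a scaling that assumes most genes are alike. The same held for 71.1% of all genes tested and for 96.7% of the 5477 tested genes whose mean level lay in the range of these 10. The upper ends for Dpy19l2 and Zpbp were both 1.09, and those for Spaca1 and Zpbp2 were 1.196 and 1.209. An equal recovery is not shown for any of the 10. The intervals are those of the fit with TMM scaling on all 6 libraries. Whether the 2-fold bound holds in the other settings, such as without scaling factors, was not tested.

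**Figure D2:**
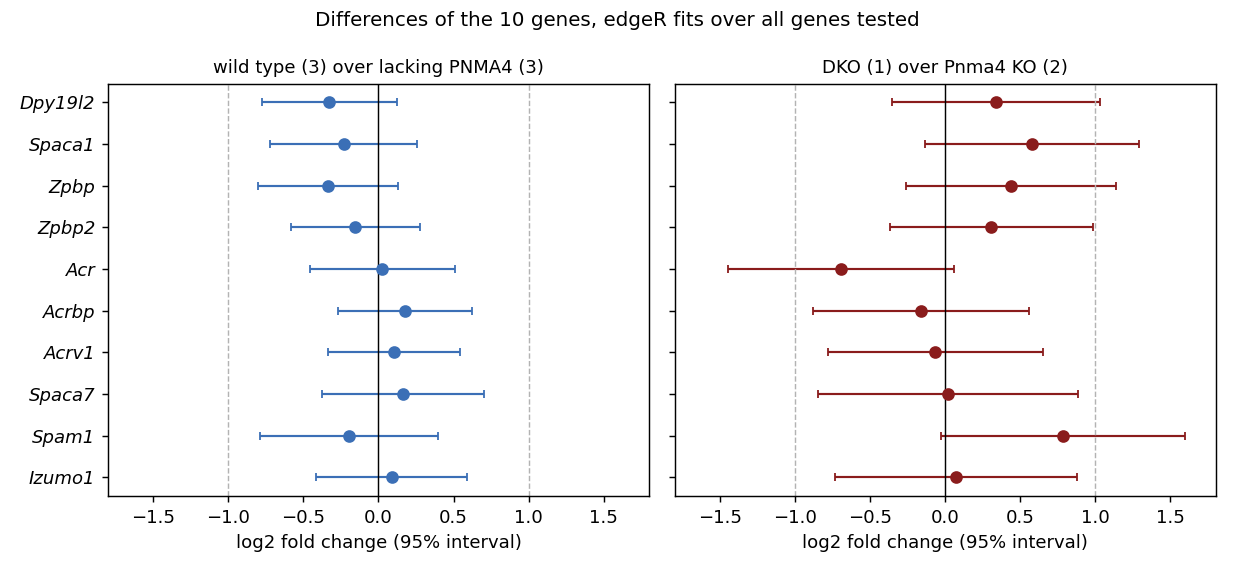
Log2 fold changes with 95% intervals from the edgeR fits, for 3 wild-type libraries over 3 lacking PNMA4 (left) and for the double knockout library over 2 Pnma4 knockout libraries (right). Dashed lines mark a 2-fold difference, a log2 value of 1. All intervals on the left stay inside the dashed lines and cross 0, and those on the right are wider and also cross 0.

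The group lacking PNMA4 holds 2 genotypes, and values between them are given with 1 library on one side. In a fit with the 3 genotypes apart, the double knockout library was compared with the 2 Pnma4 knockout libraries. The lone library, which also had the highest ribosomal share, was assumed to vary as the others do, so the absence of a call says little about the genotypes. Over all genes 10 of 13413 were called, or 0.0746%, and 0 of the 10 genes were. At an unadjusted p under 0.05 the share was 6.19% of all genes and again 0 of the 10. Spam1 had the largest value, 32.4 CPM against a mean of 18.3 CPM, or a log2 fold change of 0.79 (standard error 0.40, edgeR adjusted p = 0.825) with a ratio interval of 0.982 to 3.03. Acr had the most negative one, 26.4 CPM against 43.1 CPM, at −0.69 (standard error 0.37, edgeR adjusted p = 0.844) with a ratio interval of 0.367 to 1.04. Both intervals reach well past 2-fold, so this single library bounds the genes less tightly than the comparison of both groups. The median over the 10 was 0.19 and over all genes −0.01. Without scaling factors these medians were −0.57 and −0.76, a shift that the 10 genes shared with all genes.

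The genes did not all move together from library to library. For each gene the log2 level was set against the gene's own mean over the 6 libraries. Dpy19l2 and Zpbp were both low in wild-type replicate 1, at −0.56 and −0.54, and both high in the double knockout, at 0.40 and 0.48. Acrbp went the other way in wild-type replicate 1, at 0.46, and Acr in the double knockout, at −0.49. In the first Pnma4 knockout Spam1 was at −0.70 and Acr at 0.43.

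**Figure D3:**
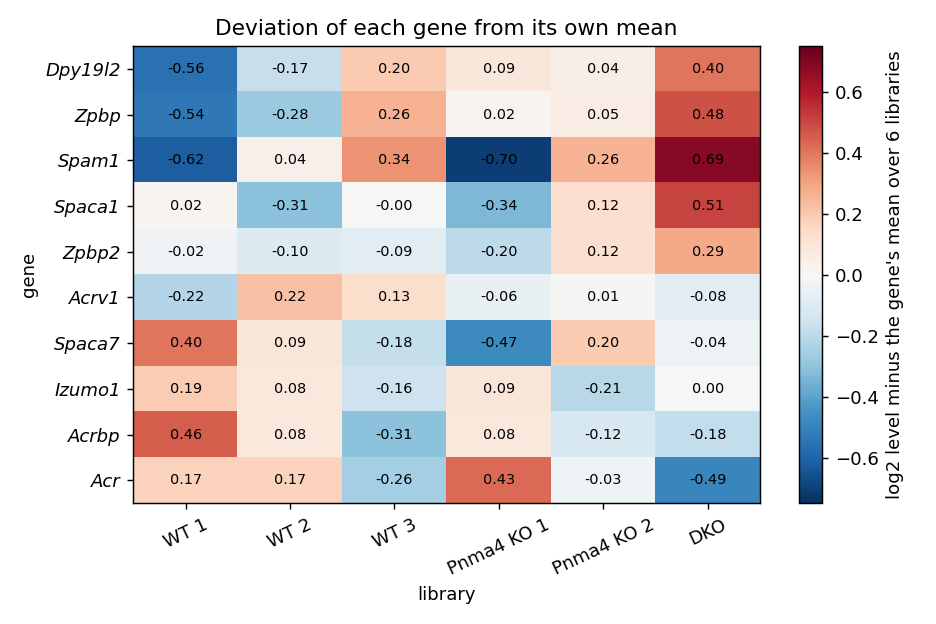
Heat map of the log2 level of each gene minus its mean over the 6 libraries, with red for above and blue for below the mean and the value in each cell. Genes at the top (Dpy19l2, Zpbp, Spam1) are low in wild-type replicate 1 and high in the double knockout, and genes at the bottom (Acrbp, Acr) show the opposite sign in both libraries.

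These contrasts also appeared in ratios of raw counts within a library, which no scaling can change. Over the 45 pairs of the 10 genes, the highest ratio exceeded the lowest by 1.13-fold to 4.94-fold, with a median of 2.05-fold. The pairs named here were picked after their values were seen and carry no test. Dpy19l2 over Zpbp was the steadiest pair, at 2.05, 2.23 and 1.99 in wild type, 2.17 and 2.06 in the Pnma4 knockouts and 1.97 in the double knockout. The exact binomial intervals of all 6 libraries overlapped each other. Next came Spaca1 over Zpbp2, from 0.536 to 0.722, and Acrbp over Izumo1, from 3.90 to 5.33.

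Acr over Spam1 was the least steady pair. Its ratio was 3.18, 2.02 and 1.22 in wild type, 4.03 and 1.503 in the Pnma4 knockouts and 0.814 in the double knockout. The first Pnma4 knockout had an interval of 2.82 to 5.87 and the second one of 1.23 to 1.84. Acrbp over Zpbp spread as well, from 1.99 (interval 1.65 to 2.42) in wild-type replicate 1 to 0.674 (0.584 to 0.777) in wild-type replicate 3 and 0.633 (0.518 to 0.773) in the double knockout. For Acr over Spam1 both the highest and the lowest library lacked PNMA4. For Acrbp over Zpbp the highest was wild type and the lowest the double knockout, with wild-type replicate 3 next to it.

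**Figure D4:**
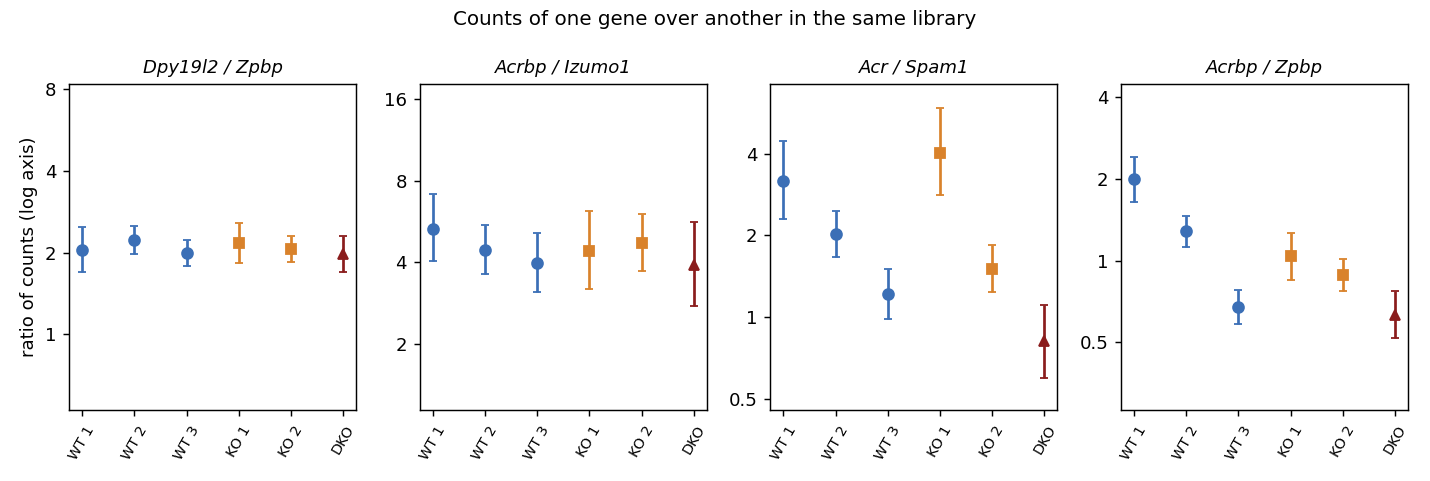
Ratio of the counts of one gene to those of another in the same library, on log axes of equal span, with exact binomial 95% intervals for counting error. Blue circles are wild type, orange squares Pnma4 knockout and the dark red triangle the double knockout. Dpy19l2 over Zpbp and Acrbp over Izumo1 are nearly level, while Acr over Spam1 runs from 0.814 to 4.03.

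The genes outside the set whose library pattern lay nearest to the mean pattern of the 10 were Ywhae, Wdr11, Pde1a and Gtf2h1. Nearness was the root mean square difference of log2 levels, each gene centred over the 6 libraries, and 13351 genes were compared. The differences of these 4 were 0.04, 0.04, 0.04 and 0.05 on the log2 scale. Among the 10 themselves the nearest to that mean was Zpbp2, at 0.09, and the farthest Spam1, at 0.43. The 4 genes varied little, with coefficients of variation from 6.67% to 8.93%, beside a median of 21.1% for the 10. As the 10 did not all move together, nearness to their mean does not show a pattern shared with any single member.

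A wider set of genes of the acrosome and of fusion also held no call. In 5 wider lists 62 genes were tested and 0 passed the edgeR test in either direction, beside 0.0596% of all genes. Among 25 genes of acrosome biogenesis and the perinuclear theca, the protein shell between acrosome and nucleus, 13 log2 fold changes were positive and 12 negative, with a median of 0.02. Highest in CPM, which is not corrected for length, was the coiled-coil gene Ccdc136, with 1186 ± 370 CPM in the wild-type libraries against 1005 ± 156 CPM in those lacking PNMA4, and then the Golgi gene Tmf1, with 340 ± 59.4 against 309.6 ± 77.5 CPM (SD, n = 3 each). Of 19 tested genes of the acrosomal matrix, membrane and enzymes, 8 were positive and 11 negative, with a median of −0.04. Crisp2, a secreted protein of the acrosome and tail, stood at 300.5 ± 119 and 377 ± 77.9 CPM, and Ace, which encodes angiotensin-converting enzyme with its testis form, at 216 ± 58.6 and 207 ± 18.7 CPM (SD, n = 3 each).

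The list of sperm fusion factors, which also holds the Izumo family genes Izumo2, Izumo3 and Izumo4, likewise held no call. Not all of its genes are known to act with Izumo1 in fusion. Of its 9 tested genes, 5 were positive and 4 negative, with a median of 0.03 and a range of −0.30 to 0.12. The sperm membrane proteins Dcst1 and Dcst2 had the highest CPM, at 24.9 ± 3.43 and 24.2 ± 3.15 CPM for Dcst1 and 29.6 ± 3.49 and 27.4 ± 4.36 CPM for Dcst2 (SD, n = 3 each). Of 15 genes of the exocytosis machinery that opens the acrosome, 8 were tested, with 7 positive and a median of 0.10. Among these Plcd4, a phospholipase, was at 89.4 ± 16.4 and 84.5 ± 9.58 CPM, and Unc13b, a vesicle priming factor, at 52.3 ± 7.23 and 50.9 ± 3.71 CPM (SD, n = 3 each). Snap25, a membrane fusion protein best known from neurons, and the synaptotagmin Syt8 had 0 counts in every library.

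Most genes of the egg side had few or no counts. Izumo1r, which encodes Juno, had 0 counts in all 6 libraries, and 3 counts over their combined scaled total correspond to 0.0959 CPM. Zp1, Zp2 and Zp3, the genes of the egg coat, had 3, 7 and 4 counts in all, and Cd9, an egg membrane gene that other cells also express, had 21. Of the 7 oocyte markers, which include these 3, Gdf9 (81 counts) and Nlrp5 (74 counts) were tested, and neither was called. Ovgp1, an oviduct glycoprotein gene, was the single tested gene of the egg-side list, with 4.96 ± 0.592 CPM in the wild-type libraries against 3.60 ± 0.375 CPM in the others (SD, n = 3 each). Its groups did not overlap, as was so for 6.69% of all genes tested. Its log2 fold change was 0.48 (standard error 0.35, edgeR adjusted p = 1.00).

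Outside the naming rule, 2 genes of the wider lists are given because their unadjusted p was under 0.05, a choice made after their values were seen. Lyzl4, an acrosomal lysozyme-like gene, was at 4.99, 2.43 and 3.38 CPM in wild type, 8.89 and 5.14 CPM in the Pnma4 knockouts and 10.03 CPM in the double knockout. The wild-type values all lay below the others. Its log2 fold change was −1.16 (standard error 0.36, unadjusted p = 0.00395 in edgeR's quasi-likelihood fit, adjusted p = 1.00), on 19 to 36 counts per library. Capza3, an actin-capping protein of the sperm head, was at 13.1, 18.9 and 18.4 CPM in wild type, 37.4 and 22.4 CPM in the Pnma4 knockouts and 23.1 CPM in the double knockout. It also showed no overlap, with a log2 fold change of −0.69 (standard error 0.25, edgeR adjusted p = 1.00). Such a count, 2 of 62, stands beside 2.92% of all genes at that unadjusted threshold. Groups without overlap were found for 6.69% of all genes tested.

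**Figure D5:**
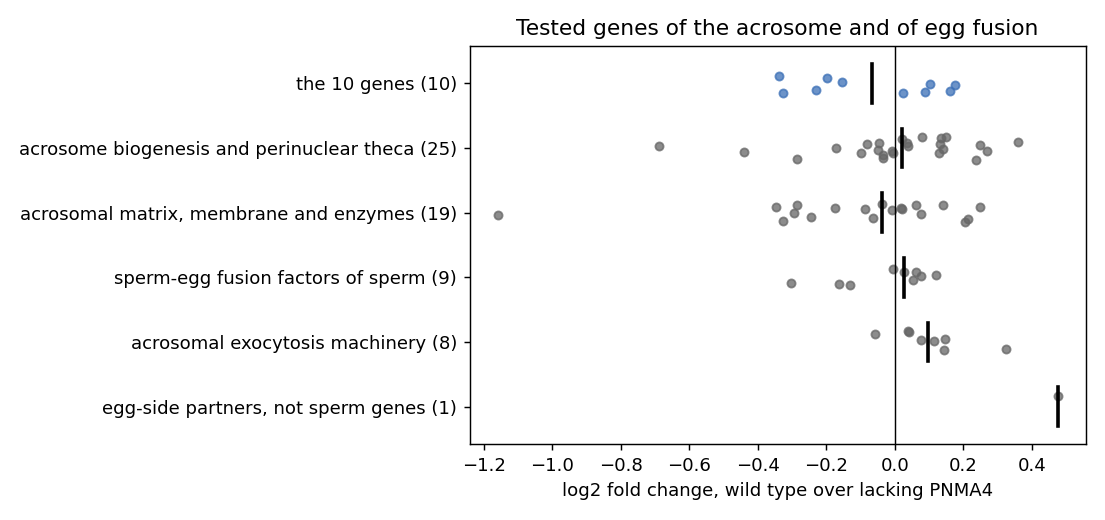
Log2 fold changes of wild type over lacking PNMA4 for the 10 genes (blue) and for the tested genes of 5 wider lists (grey), 1 point per gene with vertical jitter and a black bar at the median. The number of genes is given beside each name. The medians of the 10 genes and of the 4 sperm lists lie between −0.07 and 0.10, and Lyzl4 is the point farthest to the left, at −1.16.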

How the data were processed

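RNA of 6 PNMA4 immunoprecipitates from mouse testis was measured. The authors deposited raw counts, whole numbers per Ensembl gene ID, with 1 column per library and no pooling. STAR 2.5.2b, bcl2fastq 2.20, featureCounts, DESeq2 and build GRCm38 are named, without settings, per the submitters' processing notes. The annotation release was not given in the sources used here. Each count column matched 1 library by name.

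Genes kept by filterByExpr (minimum count 10, minimum total 15) were tested with edgeR 4.0.16 (R 4.3.3): TMM scaling, quasi-likelihood F test, Benjamini-Hochberg adjustment over all genes tested, threshold 0.05. CPM use the summed counts of tested genes times the TMM factor. Each standard error was derived from the estimate and its F statistic (|log2 ratio| / √F). The alternatives were DESeq2 1.42.0, limma-voom (limma 3.58.1), other scalings, no filter, a replicate block and leaving out each library. Libraries of a group are biological replicates per the design text, and no 2 agreed within sampling noise (chi-square per gene at least 8.60). That value includes Rn18s-rs5 and Lars2, whose differing share can raise it, so it does not by itself show biological replication. Coordinates and upstream bases come from RefSeq tables of GRCm38.p6.

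The genes and lists were chosen with earlier results of these data known. The naming rule took the 10 genes, genes of each wider list past the threshold or else its 2 most abundant, and the 4 nearest in pattern. Fimp, a listed fusion gene, was not matched to the table.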

Additional observations from a re-analysis of the deposited data

How the results depend on the processing

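Under every alternative run for it, the count of called genes was 0 for the 10 genes in both contrasts and 0 for the wider lists. Of 140 values of single genes, 13 in 8 genes changed sign, none past the threshold, and 5 of the 13 came without scaling factors, which shifted all genes. In that setting the median of the 10 was 0.23 (all genes 0.31), Dpy19l2 was at 0.014, Spaca1 at 0.11, Zpbp at 0.0058, Zpbp2 at 0.17 and Spam1 at 0.18. With 1 library left out, the median ran from −0.13 (without the first Pnma4 knockout) to 0.030 (without the double knockout), Acr from −0.16 to 0.27, Acrbp from −0.034 to 0.35, Spam1 from −0.48 to 0.094 and Izumo1 from −0.0080 to 0.19. Without wild-type replicate 3, Dpy19l2 (−0.53) and Zpbp (−0.58) had an unadjusted p under 0.05, with edgeR adjusted p of 0.422 and 0.375. The cause of these shifts was not tested.

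No pairing by replicate number was seen: same-numbered deviations correlated at 0.04, −0.06 and 0.08 across genes. Other combinations of libraries ran from −0.19 to 0.19. Deviations were taken from the mean of each small group, which constrains these values, so they cannot exclude a pairing. With a replicate block the median of the 10 was −0.04, and 7 genes in all were called against 8. Over all genes, 31 were called with no filter and 18 without the double knockout. In the contrast between knockouts, against 10, the calls were 201 without scaling factors, 31 with no filter, 16 in DESeq2, 22 without wild-type replicate 2, 35 without wild-type replicate 3 and 18 without the first Pnma4 knockout. Leaving Rn18s-rs5 and Lars2 out of the library size, chosen after seeing the data, gave a median of −0.06.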
